A study of Mus musculus with 2 samples.

Results

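Reticulocytes are the youngest red cells of the blood. They have lost their nucleus, still translate haemoglobin and other proteins from stored mRNA, and clear their mitochondria and ribosomes as they mature, a process in which the mitophagy receptor Bnip3l takes part. Because the last steps of haem synthesis run in mitochondria, transcripts of the mitochondrial genome in a haemoglobin-rich barcode are commonly read as a sign of an early reticulocyte. The barcodes described here were picked by such a reading, under the working name of mitochondria-retaining reticulocytes. Each held at least 200 detected genes, had 50% to under 95% of its unique molecular identifiers (UMIs) in haemoglobin genes and 1% to under 10% in genes of the mitochondrial genome, carried at most 1 UMI over the 6 lymphocyte genes Cd79a, Cd79b, Cd74, Cd3d, Cd3e and Cd3g, and at most 2 UMIs over the neutrophil genes S100a8 and S100a9. In all, 522 of 36612 barcodes met the rule, 133 of them in the db/db library and 389 in the wt library. They are called mt-positive barcodes below, since several measurements go against the working name.

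The 2 libraries came from peripheral blood of db/db mice, which lack a working long form of the leptin receptor and become obese and diabetic, and of wt mice, all of them C57BLKs/J males aged 21 weeks. Blood of 3 mice per genotype (200 µl per group) went into 1 droplet 3' library each, after red cells had been lysed, so the red cell RNA here is what was left after lysis. Both the mice and the libraries differ between the genotypes, these cannot be told apart, and no test across replicates is possible. Intervals below are 95% intervals that cover counting error only, and they treat UMIs as independent although UMIs of 1 barcode are not. Depth was 70039773 UMIs over 19912 barcodes for db/db and 50540198 UMIs over 16700 barcodes for wt. Lepr had 0 UMIs in both, and a 3' read would in any case not tell the db allele from the wt one. Of the barcode sequences, 91 occurred in both libraries, and 0 db/db and 4 wt mt-positive barcodes were among them.

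Mt-positive barcodes made up 0.668% (0.560 to 0.791%) of the db/db library and 2.33% (2.11 to 2.57%) of the wt library (exact Clopper-Pearson intervals). The ratio of the shares, db/db over wt, was 0.287 (exact conditional binomial interval 0.234 to 0.350). Among barcodes with at least 50% haemoglobin UMIs the ratio was 0.243 (0.198 to 0.297). The neighbouring class that passed the same limits but had under 1% mitochondrial UMIs, called mt-low barcodes here, went the other way, with 883 in db/db and 457 in wt and a ratio of 1.62 (1.45 to 1.82). Mt-positive barcodes were therefore 13.1% (11.1 to 15.3%) of both classes together in db/db and 46.0% (42.6 to 49.4%) in wt. Barcodes with 95% or more haemoglobin UMIs numbered 6428 in db/db and 745 in wt, a ratio of 7.24 (6.71 to 7.82). The share of mt-positive barcodes depended on the depth required of them. With at least 500 genes only 24 db/db and 30 wt barcodes were left, and the ratio was 0.671 with an interval of 0.375 to 1.19. Leukocyte barcodes with 10% or more mitochondrial UMIs, a class set up after the data had been seen, numbered 109 in db/db and 828 in wt, a ratio of 0.110 (0.0896 to 0.135). The part of this class in the share of mt-positive barcodes was not tested.

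The limits on leukocyte genes removed most barcodes of the same haemoglobin and mitochondrial range. In that range they took out 498 of 631 db/db barcodes (78.9%, 75.5 to 82.0%) and 662 of 1051 wt barcodes (63.0%, 59.99 to 65.9%). Under 1% mitochondrial UMIs, in the same haemoglobin range, they took out 179 of 1062 db/db barcodes (16.9%, 14.7 to 19.2%) and 109 of 566 wt barcodes (19.3%, 16.1 to 22.8%). The limits on leukocyte genes were thus exceeded more often among haemoglobin-rich barcodes above the mitochondrial limit than below it, in both libraries. Above it, the lymphocyte limit made up 493 of the 498 db/db and 658 of the 662 wt removals. Before the leukocyte limits, 631 of 19912 db/db and 1051 of 16700 wt barcodes lay in the haemoglobin and mitochondrial range of the rule. The limits removed a larger part of these in db/db than in wt. The ratio of shares given above thus depended on the limits as well. Mt-positive barcodes were shallow, with a median of 3169 UMIs and 304 genes in db/db and 3004 UMIs and 268 genes in wt, against 5468 UMIs and 232 genes in db/db and 6221 UMIs and 225 genes in wt mt-low barcodes. Outside haemoglobin and mitochondrial genes, a median of 484 UMIs was left per db/db barcode and 454 per wt barcode. These remaining UMIs, 87821 in db/db and 212301 in wt, are called other UMIs, and levels of nuclear genes below are UMIs per 1000000 other UMIs. Haemoglobin and mitochondrial UMIs thus do not enter the total. The levels can still vary with the haemoglobin and mitochondrial shares used by the rule, as given below.

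The erythroid marker genes were present. Alas2, the enzyme that starts haem synthesis in red cells, stood at 8665 in mt-positive db/db barcodes and 10820 in mt-positive wt barcodes, against 39.4 and 46.6 in leukocyte barcodes of the same 2 libraries (at least 200 genes, under 20% haemoglobin and under 10% mitochondrial UMIs, at least 3 UMIs over the 8 genes of the leukocyte limits). At least 1 Alas2 UMI was seen in 88.0% (81.2 to 93.0%) of db/db and 88.4% (84.8 to 91.4%) of wt mt-positive barcodes, at median depths of 3169 and 3004 UMIs. In leukocyte barcodes, which should lack Alas2, that share was 7.81% in db/db and 8.82% in wt at 2176 and 2353 UMIs. The mitochondrial iron importer Slc25a37 stood at 2938 in db/db and 3632 in wt, the ISG15-conjugating enzyme Ube2l6 at 2733 and 4008, and the noncanonical poly(A) polymerase Fam46c at 3872 and 5148. Over leukocyte barcodes of the same library the 4 genes were between 36.2-fold (Slc25a37 in db/db) and 232-fold (Alas2 in wt) higher. On this scale all 4 were lower in each library than in mt-low barcodes, where Alas2 reached 18873 in db/db and 19107 in wt. With at least 500 genes, where 18 db/db mt-low barcodes were left, Ube2l6 (log2 ratio 0.20) and Fam46c (0.54) were higher than mt-low in db/db. Other UMIs were 19.3% of all UMIs in db/db and 16.7% in wt mt-positive barcodes, against 10.2% and 10.1% in mt-low barcodes. Scaled to all UMIs, the differences from mt-low barcodes are therefore smaller. The haemoglobin shares of the 2 classes also differ, as given below. Tfrc, the transferrin receptor that marks the least mature reticulocytes, had 3 UMIs in db/db and 11 UMIs in wt. These are levels of 34.2 (7.04 to 99.8) in db/db and 51.8 (25.9 to 92.7) in wt, against 92.2 and 134 in mt-low barcodes and 19.0 and 25.3 in leukocyte barcodes.

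Starts of the erythroid marker genes are shown because the 4 genes rise together with the haemoglobin share below. Each line gives 250 bases before to 50 bases after the start of the gene, from RefSeq on GRCm38.p6, and 3 of the 4 genes had an entry. Capitals mark the GATA-type letters AGATAA or, on the other strand, TTATCT. Of 32544 distinct promoter sequences of this length, 3632 (11.2%) hold one of them.
Alas2, chrX:150547167-150547466, + strand: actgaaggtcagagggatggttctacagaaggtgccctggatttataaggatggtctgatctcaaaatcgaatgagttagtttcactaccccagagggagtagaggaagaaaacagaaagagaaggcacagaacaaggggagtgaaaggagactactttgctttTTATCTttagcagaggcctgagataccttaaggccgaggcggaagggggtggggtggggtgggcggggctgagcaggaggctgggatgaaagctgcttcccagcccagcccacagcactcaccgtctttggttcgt
Ube2l6, chr2:84798578-84798877, + strand: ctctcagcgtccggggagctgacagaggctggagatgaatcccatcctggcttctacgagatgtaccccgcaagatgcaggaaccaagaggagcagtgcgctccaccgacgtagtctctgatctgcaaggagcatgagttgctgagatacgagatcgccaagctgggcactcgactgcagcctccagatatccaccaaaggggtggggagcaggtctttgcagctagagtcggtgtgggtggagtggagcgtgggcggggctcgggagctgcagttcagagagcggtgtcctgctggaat
Fam46c (Tent5c in RefSeq), chr3:100489143-100489442, - strand: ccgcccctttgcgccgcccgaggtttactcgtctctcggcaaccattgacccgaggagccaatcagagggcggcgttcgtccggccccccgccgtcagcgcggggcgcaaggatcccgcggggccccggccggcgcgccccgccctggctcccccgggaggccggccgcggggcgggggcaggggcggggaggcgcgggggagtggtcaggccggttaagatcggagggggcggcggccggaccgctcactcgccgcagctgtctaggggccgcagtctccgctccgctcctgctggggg
The Alas2 start holds these letters once, on the other strand, and the starts of Ube2l6 and Fam46c do not hold them. A match here is a description of letters and says nothing about binding.

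**Figure D1:**
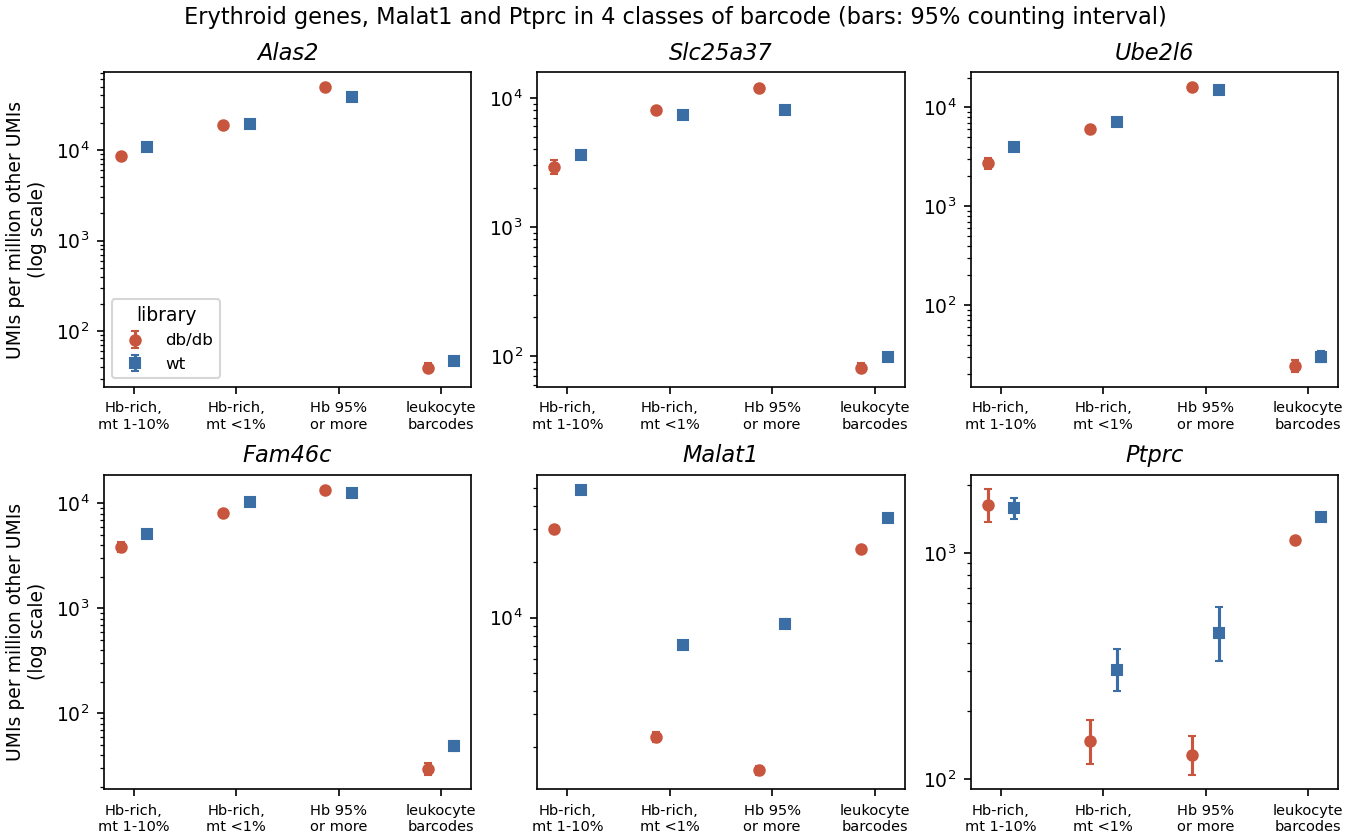
Levels of 4 erythroid genes, Malat1 and Ptprc, as UMIs per 1000000 other UMIs on a log scale, in mt-positive, mt-low, nearly pure haemoglobin and leukocyte barcodes, with db/db left of wt and bars for the exact Poisson 95% interval. In mt-positive barcodes the erythroid genes lie below the other haemoglobin-rich classes and far above leukocyte barcodes, while Malat1 and Ptprc lie at or above the leukocyte level. Median haemoglobin shares were 77.9% in db/db and 79.4% in wt mt-positive barcodes, and 89.8% in mt-low barcodes of both libraries.

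Nuclear RNA was abundant. Malat1, a long noncoding RNA that stays in the nucleus (chr19:5795690-5802672, - strand, GRCm38), had 2635 UMIs in mt-positive db/db barcodes and 10343 UMIs in mt-positive wt barcodes. Its level was 30004 in db/db and 48719 in wt, against 2262 and 7092 in mt-low barcodes and 23574 and 34431 in leukocyte barcodes. The ratio of mt-positive over mt-low was 13.3 (12.4 to 14.2) in db/db and 6.87 (6.55 to 7.20) in wt. At least 1 Malat1 UMI was found in 114 of 133 db/db barcodes (85.7%) and in 386 of 389 wt barcodes (99.2%). In mt-low barcodes, which were deeper, it was found in 267 of 883 in db/db (30.2%) and in 399 of 457 in wt (87.3%). Detection of Malat1 thus separated the 2 classes less in wt than in db/db. Per barcode, the median share of other UMIs taken by Malat1 was 2.44% in db/db and 3.61% in wt, next to 2.39% and 3.50% in leukocyte barcodes and to 0 and 0.365% in mt-low barcodes. Ptprc, the pan-leukocyte surface phosphatase CD45, stood at 1628 in db/db and 1573 in wt, against 147 and 305 in mt-low barcodes and 1144 and 1438 in leukocyte barcodes. Ptprc is not among the genes the rule limits.

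Marker genes of other blood and tissue cells were spread over nearly all mt-positive barcodes. Over 9 marker lists that leave out the genes of the rule, 120 of 133 db/db barcodes and 356 of 389 wt barcodes held at least 2 UMIs, against 685 of 883 and 267 of 457 mt-low barcodes. After thinning each barcode to 1000 UMIs, which left 112 db/db and 311 wt mt-positive barcodes, the share was 58.9% in db/db and 43.7% in wt, against 46.0% and 21.7% in mt-low barcodes, whose thinned UMIs hold more haemoglobin. Summed over the 9 lists, the level among other UMIs was 20849 in db/db and 13985 in wt, against 22067 and 8656 in mt-low barcodes, so on this scale it was not higher than mt-low in db/db. The B cell list was the most frequent in wt, with at least 2 UMIs in 294 of 389 barcodes, and was found in 52 of 133 in db/db. The platelet list led in db/db, with 63 of 133 barcodes, and was found in 53 of 389 in wt. Kidney proximal tubule markers were found in 27 of 133 db/db and 7 of 389 wt barcodes, monocyte markers in 27 and 26, and T cell markers in 23 and 25. No barcode held 2 basophil marker UMIs, and 1 db/db and 0 wt barcodes held 2 neutrophil marker UMIs. Only 13 db/db and 33 wt barcodes held fewer than 2 UMIs over all 9 lists, and only 2 and 4 of these also had under 1% of their other UMIs in Malat1. In the 13 and 33 barcodes Malat1 still stood at 45383 in db/db and 39736 in wt. Markers of cycling nucleated erythroblasts, such as Mki67 and Top2a, were low, with 45 UMIs over 13 genes in db/db and 109 in wt and a summed level of 512 and 513. In leukocyte barcodes that sum was 844 and 764. The part of RNA from other cells in the mitochondrial transcripts of these barcodes was not tested.

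The rule fixed how many mitochondrial UMIs a barcode held but not which mitochondrial genes they came from, and in this the mt-positive barcodes differed from mt-low barcodes. The mitochondrial genome encodes subunits of the respiratory chain, and mt-Co1 (chrM:5328-6872, + strand), which encodes a core subunit of cytochrome c oxidase, took 15.7% (15.0 to 16.4%) of mitochondrial UMIs in mt-positive db/db barcodes and 15.8% (15.4 to 16.1%) in mt-positive wt barcodes. In mt-low barcodes mt-Co1 took 35.8% (35.1 to 36.6%) in db/db and 35.1% (34.1 to 36.1%) in wt. Leukocyte barcodes stood at 14.8% in db/db and 15.2% in wt, and barcodes with 95% or more haemoglobin at 34.5% and 36.5%. For mt-Co1 the mt-positive barcodes thus lay close to leukocyte barcodes and far from the other haemoglobin-rich barcodes, in both libraries alike. With at least 500 genes required, mt-low barcodes were down to 18 in db/db and 8 in wt, and their mt-Co1 share to 27.4% and 20.1%.

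Other mitochondrial genes followed the same split. The complex I gene mt-Nd1 took 5.56% in db/db and 5.56% in wt mt-positive barcodes, 2.04% and 2.53% in mt-low barcodes, and 5.77% and 5.92% in leukocyte barcodes. The complex I gene mt-Nd2 took 4.76% and 5.33% in mt-positive barcodes, 1.69% and 2.00% in mt-low barcodes, and 4.79% and 5.59% in leukocyte barcodes. Cytochrome b, mt-Cytb, took 10.8% and 10.3% in mt-positive barcodes, 5.25% and 5.56% in mt-low barcodes, and 10.6% and 10.4% in leukocyte barcodes. The ATP synthase gene mt-Atp6 and the oxidase gene mt-Co3 were also higher in mt-positive than in mt-low barcodes, and mt-Co2 was close to equal, at 15.2% and 14.8% against 15.9% and 15.6%. Single barcodes with at least 20 mitochondrial UMIs, 119 db/db and 363 wt mt-positive ones and 297 and 190 mt-low ones, showed the same. The median barcode had 15.8% mt-Co1 in db/db and 15.5% in wt when mt-positive, and 35.7% and 33.7% when mt-low. The 90th percentile of mt-positive barcodes was 23.4% in db/db and 22.3% in wt.

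**Figure D2:**
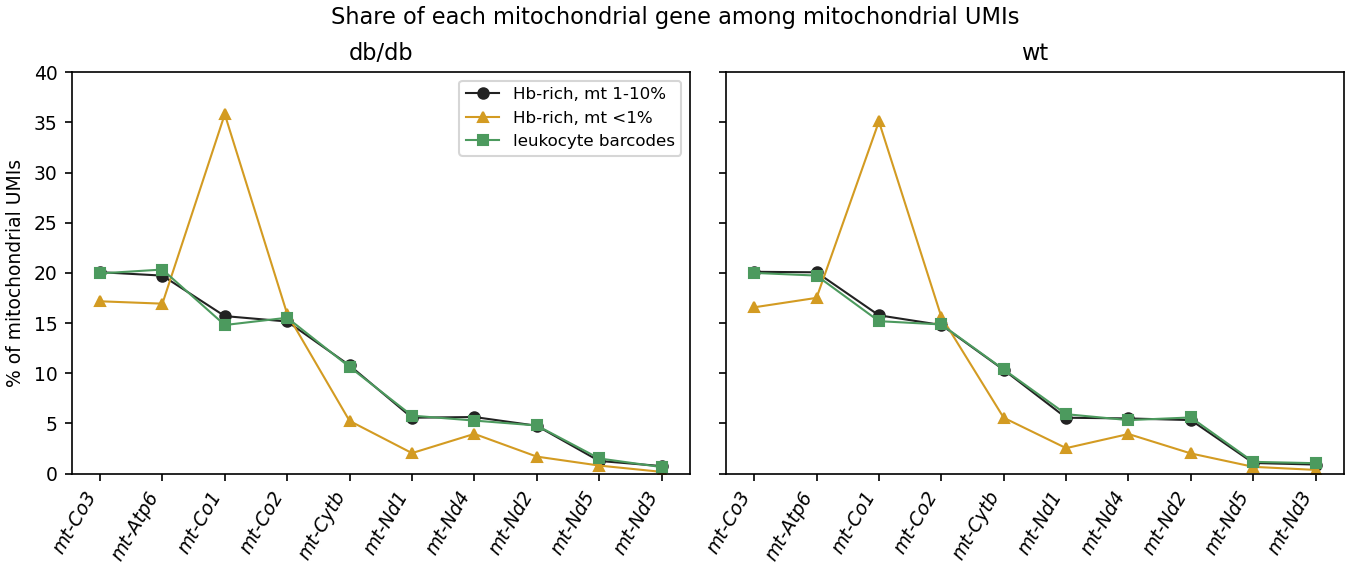
Share of each mitochondrial gene among all mitochondrial UMIs (%), for genes with 0.5% or more in mt-positive wt barcodes, with db/db at the left and wt at the right. Black circles (mt-positive) run along green squares (leukocyte barcodes), and yellow triangles (mt-low) peak at mt-Co1 with 35.8% in db/db and 35.1% in wt.

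The mix of mitochondrial genes changed gradually across the 1% limit. Among haemoglobin-rich barcodes with under 0.25% mitochondrial UMIs, mt-Co1 took 41.2% in db/db and 42.7% in wt. From 0.75% to under 1%, mt-Co1 took 26.6% (24.1 to 29.1%) in db/db and 21.5% (19.5 to 23.6%) in wt. From 1% to under 2% it took 18.7% in db/db and 17.3% in wt, and from 5% to under 10% it took 15.3% in db/db and 14.9% in wt. Malat1 moved the opposite way over the same bins. Its level was 1870 in db/db and 4161 in wt under 0.25%, 11266 and 22239 from 0.75% to under 1%, 22365 and 31654 from 1% to under 2%, and 43589 and 65657 from 5% to under 10%. The highest bin held only 16 db/db barcodes and 68 wt barcodes. Just inside the limit, within the first 0.25 points above 1%, lay 18 db/db and 23 wt barcodes, and just outside it, from 0.75% to under 1%, lay 36 and 38, and the summed level of the 4 erythroid genes was 18589 and 22697 inside against 20807 and 28531 outside. Within mt-positive barcodes the correlation between the Malat1 share and the mitochondrial share was 0.264 over 133 db/db and 0.306 over 389 wt barcodes, as a description of barcodes that share a library.

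**Figure D3:**
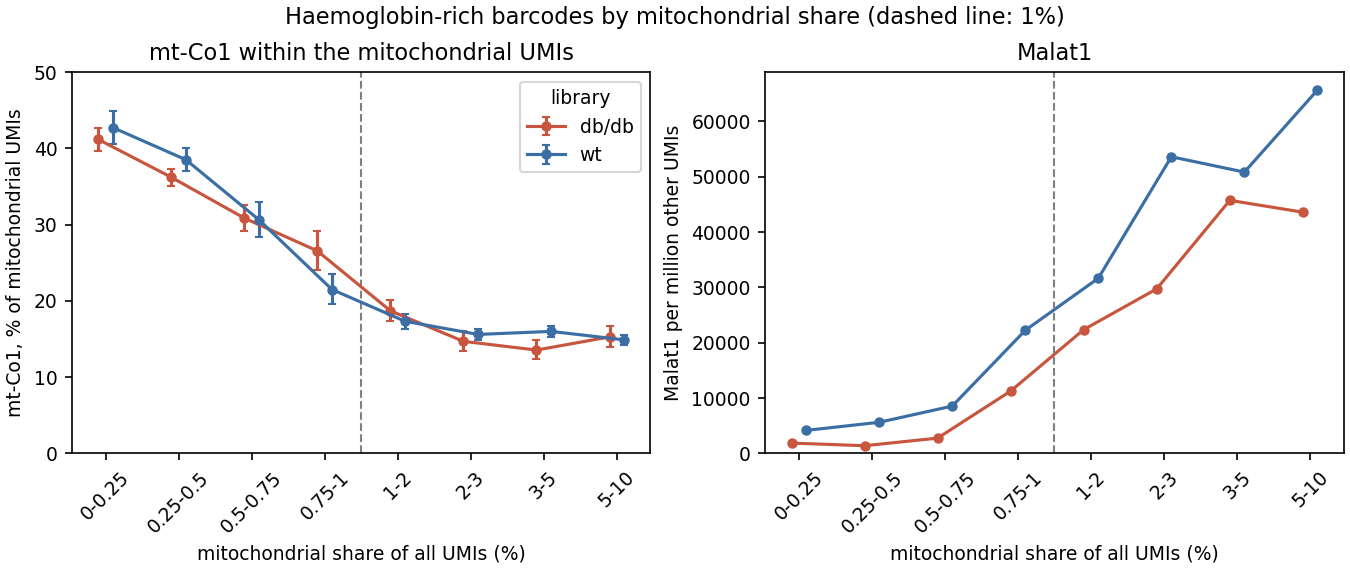
Left, mt-Co1 as a percentage of mitochondrial UMIs with exact 95% intervals, and right, Malat1 per 1000000 other UMIs, in haemoglobin-rich barcodes binned by their mitochondrial share, with the 1% limit dashed. In both libraries mt-Co1 lies above 40% in the lowest bin and at or below 15.3% in the highest, while Malat1 is lowest in the 2 bins under 0.5% and stands at 43589 in db/db and 65657 in wt in the highest bin.

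Along the haemoglobin share the erythroid genes rose steeply while Malat1 did not fall in step. Summed over Alas2, Slc25a37, Ube2l6 and Fam46c, the level in db/db was 7142 at 50 to 70% haemoglobin, 15888 at 70 to 80%, 32146 at 80 to 90% and 47794 at 90 to 95%. In wt it was 9054, 21783, 34040 and 48085 over the same bins. These bins held 45, 25, 59 and 4 barcodes in db/db and 135, 72, 170 and 12 in wt, so the last bin rests on few barcodes. Malat1 was 24219, 44799, 27607 and 40441 in db/db and 44021, 63722, 47756 and 24965 in wt. The mt-Co1 share in db/db was 18.1% (16.7 to 19.6%) in the lowest of these bins, 14.7% (13.4 to 16.1%) and 15.3% (14.4 to 16.2%) in the next, and 12.1% (9.22 to 15.6%) in the highest, and in wt it lay between 15.5% and 16.7%. In none of these bins did it reach the share of mt-low barcodes. In the lowest part of the range, from 50 to 60% haemoglobin, 30 db/db barcodes had a median of 806 UMIs and 94 wt barcodes a median of 705.5 UMIs, and ribosomal protein genes had a summed level of 122405 in db/db and 124111 in wt, against 87064 and 62209 over all mt-positive barcodes. The correlation between the haemoglobin share and the erythroid share of other UMIs was 0.799 in db/db and 0.764 in wt, again as a description only. Mt-low barcodes had a median haemoglobin share of 89.8% in both libraries, against 77.9% in db/db and 79.4% in wt mt-positive barcodes. In mt-low barcodes the 4-gene level was 41099 in db/db and 43884 in wt, below the mt-positive bin at 90 to 95% and above the other bins. The part of the haemoglobin share in the differences from mt-low barcodes was not tested. Just inside the 50% limit, at 50 to under 55%, lay 19 db/db and 48 wt barcodes with a median of 719 and 652 UMIs, and just outside it, at 45 to under 50%, lay 14 and 15 barcodes with 1514 and 932 UMIs.

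**Figure D4:**
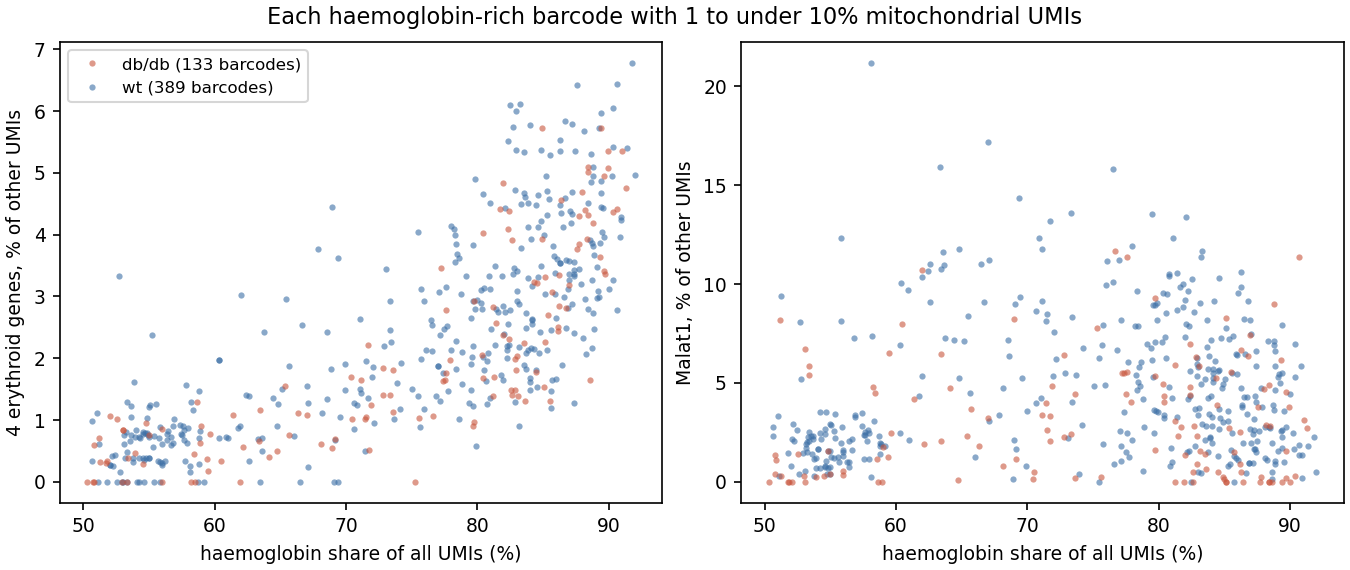
Each mt-positive barcode by its haemoglobin share of all UMIs (horizontal axis, %) and by the share of its other UMIs (%) in the 4 erythroid genes (left) or in Malat1 (right), for 133 db/db and 389 wt barcodes. The erythroid share climbs with haemoglobin, and Malat1 is present over the whole range, with values at 0 mainly in db/db.

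Across all genes, mt-positive barcodes were compared with mt-low barcodes in each library. Of 743 genes with at least 50 UMIs over both classes in each library, 179 (24.1%) were at least 1.5-fold higher and 292 (39.3%) at least 1.5-fold lower in both libraries. Only the mitochondrial share separates the classes in the rule, so none of these nuclear genes was used directly, but both classes come from the same libraries and the comparison is a description. The median log2 ratio over all 743 genes was -0.37 in db/db and -0.30 in wt, where 10 was added to each level, as in every log2 ratio here. The split between higher and lower depended on the scale and on the minimum of UMIs. Scaling to all UMIs gave 299 higher and 77 lower, and edgeR's TMM scaling gave 45 higher and 542 lower. On the reported scale, a minimum of 20 UMIs gave 738 higher and 386 lower of 1742 genes. The median gene was then at 0.53 in db/db and 0.51 in wt. A minimum of 200 UMIs gave 15 higher and 146 lower of 232 genes.

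Tested genes of haem and iron use lay mostly below the median gene. Testing needed 50 UMIs over both classes, and mt-low barcodes held more other UMIs (531298 against 87821 in db/db, 298631 against 212301 in wt). Genes high in mt-low barcodes could thus pass through that class alone, so counts of lower genes do not describe whole lists. All 9 tested haem synthesis genes, of 22 listed, were lower in both libraries, against 39.3% of all tested genes. Their median log2 ratio was -1.51 in db/db and -1.03 in wt. Among them Fech, which puts iron into the haem ring, was at -1.28 and -0.97, and Urod, an earlier enzyme of the same path, at -2.19 and -2.08. Of 6 iron genes, 5 were lower, including the ferritin chains Ftl1 (-0.97 and -0.70) and Fth1 (-1.07 and -1.13). Membrane genes were lower in 11 of 14, among them the anion exchanger Slc4a1 (-2.01 and -2.05) and spectrin Sptb (-2.02 and -1.87). The single higher membrane gene was Itga4 (3.93 and 1.71), an integrin that leukocytes also carry. Carbonic anhydrase Car2, which hydrates carbon dioxide in red cells, was at 1196 in db/db and 900 in wt, against 5558 and 4866 in mt-low barcodes. Scaled to all UMIs, the haem median was -0.57 in db/db and -0.30 in wt, while the median gene was at 0.39 and 0.27. The summed haem synthesis level was 43149 in db/db and 42075 in wt mt-low barcodes. In mt-positive barcodes it was 30969 and 30974 at 80 to 90% haemoglobin. At 90 to 95%, in 4 db/db and 12 wt mt-positive barcodes, it was 46569 and 43546.

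Tested genes that act in clearing mitochondria and proteins were also mostly lower in mt-positive barcodes. The same minimum of UMIs applied, and 39.3% of all tested genes were lower. Of 8 tested mitophagy and autophagy genes 7 were lower, with a list median of -1.22 in db/db and -1.14 in wt. Scaled to all UMIs that median was -0.30 and -0.38, the ubiquitin median -0.53 and -0.47, and the antioxidant median -0.22 and -0.40, all within the 1.5-fold threshold. Bnip3l stood at 3769 in db/db and 4122 in wt, against 9405 and 8599 in mt-low barcodes. This difference was smaller when scaled to all UMIs, and it was gone in db/db with at least 500 genes (log2 ratio 0.00921). Map1lc3b, which coats autophagosomes, was at -1.59 and -1.30, and Pink1, a kinase that tags damaged mitochondria, at -2.08 and -1.03. The exception was Rb1cc1, a part of the autophagy-starting kinase complex, at 2.67 and 1.90. In the ubiquitin list 14 of 17 were lower, with Ube2o, which takes part in clearing ribosomes from reticulocytes, at -1.35 and -1.21, and Mkrn1 at -1.45 and -1.20. Of 8 genes of the antioxidant list 6 were lower, among them Prdx2 (-2.23 and -1.81) and Gpx1 (-1.86 and -1.85). Nuclear genes of the respiratory chain, whose proteins work beside the mitochondrial ones, were lower in 17 of 27 and higher in 0, with a median of -0.68 in db/db and -0.85 in wt. In db/db that median turned to 0.13 when scaled to all UMIs. For ribosomal protein genes the count was 14 higher and 1 lower of 72, the list median was 0.85 in db/db and 0.16 in wt, and the medians were -1.02 and -1.19 under TMM scaling, -0.39 and -0.20 without barcodes with other cell type markers, and, in db/db, -0.077 with 80% or more haemoglobin.

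The genes highest over mt-low barcodes were Malat1, Prrc2c, Macf1, Ankrd11, Iqgap1, Pou2f2, Akap13, Ptprc, Msn and Ms4a4b. Pou2f2 encodes a transcription factor of B cells, Msn the membrane linker moesin, Ms4a4b a surface protein of T cells, and Macf1 and Iqgap1 large cytoskeletal scaffolds. Macf1 was 14.4 times as high in db/db (10.2 to 20.7) and 5.86 times in wt (4.60 to 7.54), and its level of 1275 and 1630 stood beside 723 and 788 in leukocyte barcodes. Ptprc was 11.1 times as high in db/db (8.36 to 14.8) and 5.16 times in wt (4.08 to 6.58). Among the lowest were Car2, Trim10, Isg15, Urod, Epb42, Ctse, Slc4a1, St3gal5 and Smox. Trim10 and Epb42 act in terminal red cell formation and in the red cell membrane, and Isg15 is a ubiquitin-like protein of the interferon response. Slc4a1 was 0.246 times as high in db/db (0.189 to 0.316) and 0.240 times in wt (0.205 to 0.280). B cell genes not limited by the rule were higher in 5 of 5 tested, with Ighm, the heavy chain of IgM, at 1.40 in db/db and 1.95 in wt, but the list median of 1.15 in db/db and 1.62 in wt was -0.58 and 0.29 under TMM scaling. With at least 500 genes, Pou2f2, Epb42 and Smox in db/db and Prrc2c, Trim10, Ctse and St3gal5 in wt turned direction. Platelet markers differed from this, with 6 of 8 tested lower than in mt-low barcodes, against 39.3% of all tested genes, and 0 higher. Their medians were -1.15 and -0.71, and -0.24 and -0.015 when scaled to all UMIs.

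Between the genotypes, B cell genes were lower and platelet, kidney, ribosomal protein and nuclear respiratory chain genes higher in mt-positive db/db barcodes, with values given below. The B cell, platelet, kidney and respiratory chain differences went the same way in mt-low barcodes, and the ribosomal protein difference did not. Of 819 genes with at least 50 UMIs over both libraries, 200 (24.4%) were at least 1.5-fold higher and 159 (19.4%) at least 1.5-fold lower in db/db, and the median log2 ratio was 0.06. The counts were 288 and 112 when scaled to all UMIs, 119 and 239 under TMM scaling, and 143 and 202 when Gm42418 and 3 further genes rich in ribosomal RNA reads were left out of the total. Gm42418, an annotated noncoding gene that overlaps ribosomal RNA, alone had a level of 78922 in db/db and 164427 in wt.

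Haem synthesis genes showed 0 higher and 1 lower of 7, with a median of -0.25 that was 0.18 without barcodes with other cell type markers, and the one lower gene was Isca1, which assembles iron-sulphur clusters, at -0.80. Alas2 was 0.801 times as high in db/db (0.737 to 0.870), Slc25a37 0.809 times (0.700 to 0.933), Ube2l6 0.682 times (0.588 to 0.788) and Fam46c 0.752 times (0.664 to 0.850). On this scale none of the 4 reached the 1.5-fold threshold. Under TMM scaling Alas2 (-0.59 on the log2 scale), Ube2l6 (-0.82) and Fam46c (-0.68) were past it downward, as was Ube2l6 (-0.70) without the genes rich in ribosomal RNA reads. Without the barcodes that carried other cell type markers Alas2 (0.18), Slc25a37 (0.077) and Ube2l6 (0.10) lay on the other side of 0. Iron, mitophagy and autophagy genes had 0 of 4 and 0 of 6 past the fold, and Bnip3l was at 0.914 (0.803 to 1.04). In the erythroid transcription list 3 of 7 were lower, at a median of -0.41, and the largest change of these was in Bcl11a, a repressor of embryonic globin that B cells also use. Of 6 genes of the antioxidant list 3 were higher and 0 were lower. The 3 were Gpx4, the thioredoxin binder Txnip, which is not itself an antioxidant enzyme, and Gclm (log2 ratio 0.79). Gclm is a subunit of the first enzyme of glutathione synthesis. Embryonic globins Hbb-y, Hbb-bh1 and Hba-x had 0 UMIs in mt-positive barcodes of either library. Of haemoglobin UMIs, adult Hbb-bs took 47.1% in db/db and 46.9% in wt, Hbb-bt 11.8% (11.7 to 11.9%) and 11.5% (11.5 to 11.6%), Hba-a1 23.6% and 23.5%, and Hba-a2 17.5% (17.4 to 17.6%) and 18.1% (18.0 to 18.2%). Hba-a1 and Hba-a2 are near-identical copies, so the split of reads between them is uncertain. Interferon-induced Isg15 was lower, with 24 UMIs in db/db and 151 UMIs in wt and a ratio of 0.384 (0.239 to 0.594). In db/db 1 barcode held 33.3% of the Isg15 UMIs and in wt 1 barcode held 19.2%, and with at least 500 genes required its log2 ratio was 0.46.

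All 9 tested B cell genes fell past the fold in db/db. The list median was -1.65 on the log2 scale, and between -1.91 and -1.30 under the scalings tried. Their sum was 232 UMIs in db/db and 1647 UMIs in wt, or levels of 2642 and 7758, a ratio of 0.341 (0.296 to 0.391). Ebf1, a transcription factor that sets B cell identity, had 18 UMIs in 14 db/db barcodes and 280 UMIs in 151 wt barcodes, a ratio of 0.155 (0.0908 to 0.250). Cd22, a B cell inhibitory receptor, had 0 UMIs in db/db and 68 UMIs in 60 wt barcodes, which makes it at least 9.38-fold lower in db/db when 3 counts are taken as the floor of the library. Other genes that fell most were Ciita, Bank1, Bcl11a, Pax5, Tcf4, H2-Ob and Siglecg, with ratios from 0.0672 to 0.193, and most of them are regulators or receptors of B cells. The limits on leukocyte genes, which removed 78.9% of db/db and 63.0% of wt barcodes of this range, include B cell genes, and their part in this difference was not tested. In leukocyte barcodes the B cell list had a level of 23372 in db/db and 21913 in wt.

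Genes higher in db/db belonged to several other cells. Gpx3, a peroxidase made by proximal tubule cells, had 129 UMIs in 27 db/db barcodes and 9 UMIs in 2 wt barcodes, a ratio of 34.6 (17.7 to 77.5), and 1 db/db barcode held 28.7% of its UMIs. Over 12 kidney proximal tubule markers the sum was 402 UMIs in db/db and 66 UMIs in wt, a ratio of 14.7 (11.3 to 19.4), with 1 barcode holding 22.4% of the UMIs in db/db and 16.7% in wt. The lipid carrier Apoe had 156 UMIs in 18 db/db barcodes and 41 UMIs in 15 wt barcodes, and the interleukin-7 receptor Il7r had 55 UMIs in 20 and 21 UMIs in 16. All 7 tested platelet markers were past the fold upward, at a list median of 1.44. They summed to 698 UMIs in db/db and 595 UMIs in wt, which is a ratio of levels of 2.84 (2.54 to 3.17). Of these, the platelet chemokine Ppbp stood at 1139 in db/db and 316 in wt. Monocyte markers had a ratio of 2.87 (2.43 to 3.40), with 1 barcode holding 24.2% of the UMIs in db/db and 26.4% in wt. T cell markers had a ratio of 2.40 (1.86 to 3.09), but only 1 of the 10 had enough UMIs to be tested. Their level was not higher in db/db in mt-low barcodes (128 against 171 in wt) or in leukocyte barcodes (776 against 1223). The limits of the rule include other T cell genes, and their part was not tested. NK cell markers were lower in mt-positive db/db barcodes, at 0.299 (0.191 to 0.451). Only 6 db/db and 23 wt barcodes held any, with 73.1% of the UMIs in 1 db/db barcode and 32.9% in 1 wt barcode. Further named genes that rose were Cebpb, Gpx4, Hist1h2bc, Tsc22d1 and Cd9, with ratios from 3.55 to 5.09, and Gpx4, which protects membranes from lipid peroxides, was at 979 in db/db and 231 in wt. In the 13 db/db and 33 wt barcodes with under 2 UMIs over the 9 other cell type lists the log2 ratios of Gpx4 (-0.11) and Il7r (-3.63) turned.

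Nuclear respiratory chain genes were higher in db/db in 11 of 13 tested and lower in 0, with a median log2 ratio of 0.75. Cox7b was at 1.22, Ndufa4 at 1.19 and Cox4i1 at 0.99, all of them subunits or partners of cytochrome c oxidase. For ribosomal protein genes the count was 31 higher and 0 lower of 72, and the list median 0.53. Under the scalings tried the respiratory chain median stayed between 0.49 and 0.85, and the ribosomal protein median between 0.26 and 0.70. In mt-low barcodes the respiratory chain list stood at 16211 in db/db and 11864 in wt, and the ribosomal protein list at 55688 and 61072. When barcodes with 2 or more UMIs of platelet, NK cell, monocyte, basophil, kidney or endothelial markers were left out, the ribosomal protein median was 0.01 and the respiratory chain median 0.54, and 41 db/db and 277 wt barcodes remained. The part of other cells in the remaining difference was not tested.

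**Figure D5:**
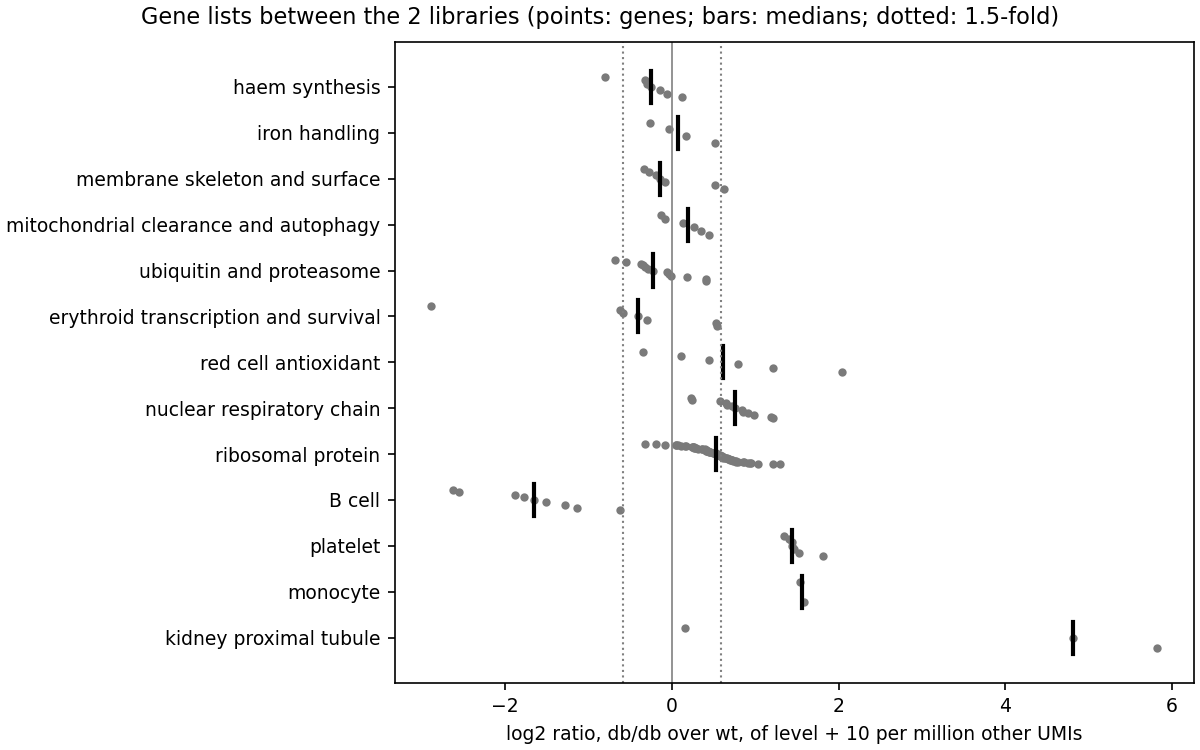
Log2 ratio of db/db over wt within mt-positive barcodes for each tested gene (points) of 13 lists, with list medians as black bars and dotted lines at 1.5-fold. Medians of the haem, iron, membrane, mitophagy and ubiquitin lists lie between -0.25 and 0.20, the B cell list lies at a median of -1.65, and medians of the platelet, monocyte and kidney lists lie at 1.44, 1.56 and 4.82, the last over 3 genes of which 1 is within the dotted lines.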

How the data were processed

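The deposited files hold raw UMI counts per gene and barcode, made by the authors with Cell Ranger 3.0.2 on mm10, per the submitters' processing notes, from 10x 3' v2 libraries, per the labels' protocols. How cells were called is not given in the sources used here. No deposited barcode had under 500 UMIs, and no doublets were called or removed. All values were computed with Python 3.11.15, numpy 2.4.6, scipy 1.17.1 and pandas 2.3.3. UMIs of barcodes meeting the rule were summed per library. Nuclear genes were scaled to 1000000 UMIs outside haemoglobin and mitochondrial genes, and mitochondrial genes to all mitochondrial UMIs. Log2 ratios are of the level plus 10. A gene was counted past the fold at a ratio of 1.5 or more, and needed 50 UMIs over both libraries (db/db over wt) or 50 UMIs over both classes in each library (mt-positive over mt-low), the latter settled after the files had been seen. With 1 library per genotype no test or p-value was made. Intervals are exact 95% intervals (Clopper-Pearson for shares, Poisson for levels, conditional binomial for ratios). Only the conditional binomial intervals were tried on simulated data, with independent counts. That cannot show how they cover UMIs that cluster in single barcodes. Named genes were the 10 highest and 10 lowest log2 ratios. For db/db over wt the library with the higher level had to hold 50 UMIs and the interval to leave out 1. For mt-positive over mt-low they were ranked by the smaller change of the 2 libraries, moved the same way in both, and needed 50 UMIs in the higher class of each. Globin, mitochondrial, ribosomal protein, antigen receptor, Y-linked and unnamed genes and the genes of the rule were left out, and members of the lists, Gm42418 and Lepr could be named besides. Some genes that meet this rule are not reported here. The rule, the gene lists and the named genes were chosen with earlier results of these data known. Alternatives covered the scale (including TMM factors of edgeR 4.0.16 in R 4.3.3), weighting, thinning to 1000 UMIs, the limits of the rule and the minimum of UMIs.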

Additional observations from a re-analysis of the deposited data

How the results depend on the processing

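No paired analysis was possible because each genotype has 1 library, and no replicate could be left out. The share of mt-positive barcodes, db/db over wt, stayed below 1 under all 10 alternatives, from 0.124 when barcodes with 2 or more UMIs of platelet, NK cell, monocyte, basophil, kidney or endothelial markers were left out to 0.671 with at least 500 genes, and it was 0.213 with a mitochondrial share from 2%. None of the 10 loosened the limits on leukocyte genes. The counts of genes past the fold moved with most settings, given here as higher and lower in db/db, then as higher and lower than mt-low. Scaling to all UMIs gave 288 and 112, then 299 and 77, and TMM scaling 119 and 239, then 45 and 542. Requiring 500 genes gave 45 and 14, then 2 and 9. Barcodes with 0 UMIs of the leukocyte genes gave 99 and 63, then 69 and 230. Without barcodes with those other cell type markers the counts were 64 and 79, then 9 and 207. A mitochondrial share from 2% gave 127 and 98, then 112 and 304, and a haemoglobin share of 60 to under 90% gave 153 and 96, then 57 and 209. Thinning to 1000 UMIs gave 56 and 29, then 8 and 123. A minimum of 20 UMIs gave 608 and 520, then 738 and 386, and one of 200 UMIs gave 39 and 18, then 15 and 146. A fold of 2 gave 90 and 79, then 132 and 182. Of the alternatives chosen after seeing the data, haemoglobin of 80% or more gave 46 and 40, then 30 and 196, and barcodes with under 2 UMIs over all 9 other cell type lists gave 2 and 9, then 1 and 134. Fewer genes were tested wherever barcodes or UMIs were removed, and the cause of other shifts was not tested. Of 1368 values of genes and list medians whose reported value was past the fold, 20 turned direction, and of 160 whose reported value was within it, 28 did. Against mt-low in db/db, scaling to all UMIs turned the respiratory chain median to 0.13, and TMM scaling turned the B cell median to -0.58 and the ribosomal protein median to -1.02. The ribosomal protein median was also turned without other cell type markers (-0.39), at 80% or more haemoglobin (-0.077) and with under 2 UMIs over the 9 lists (-1.03). With at least 500 genes, where 24 db/db and 30 wt mt-positive barcodes were set against 18 and 8 mt-low ones, the log2 ratios against mt-low turned in db/db for Pou2f2 (-0.0592), Epb42 (1.88), Smox (0.30), Ube2l6 (0.20), Fam46c (0.54) and Bnip3l (0.00921), and in wt for Prrc2c (-0.29), Trim10 (0.95), Ctse (2.97) and St3gal5 (0.67). Isg15 in db/db over wt was 0.46 there. With under 2 UMIs over the 9 lists, Il7r (-3.63), Gpx4 (-0.11) and Malat1 (0.19) turned in db/db over wt. The median gene moved by 0.18 in db/db over wt when scaled to all UMIs, by -0.26 under TMM scaling and by -0.14 without the genes rich in ribosomal RNA reads, and against mt-low by 0.77 in db/db and 0.57 in wt when scaled to all UMIs and by -1.68 and -1.27 under TMM scaling. With a minimum of 20 UMIs the median gene against mt-low moved by 0.90 in db/db and 0.81 in wt, and turned to 0.53 and 0.51. The mt-Co1 share of mt-positive barcodes lay between 14.5% and 18.6% in db/db and between 15.4% and 16.0% in wt over 9 settings, against 27.4% to 38.5% and 20.1% to 39.3% in mt-low barcodes. Only 87821 other UMIs stood behind the db/db levels, which limits the precision of single genes.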

Other observations

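Values of a few gene groups outside red cell function follow. Against mt-low barcodes, the stress and immediate early genes Junb (1.87 in db/db and 1.42 in wt on the log2 scale) and Hspa8 (1.83 and 0.97) were higher past the fold in both libraries, 2 of 5 tested, and 0 were lower, where 24.1% of all tested genes were higher. The glucocorticoid-induced Tsc22d3 was higher as well (2.20 and 1.73), as was Txnip, which restrains glucose uptake (3.25 and 1.84). The summed stress list stood at 2596 in db/db and 2751 in wt, against 1525 and 1956 in mt-low and 4165 and 4235 in leukocyte barcodes. The insulin, leptin and glucocorticoid list stood at 1025 and 895, against 196 and 261 in mt-low and 1351 and 1065 in leukocyte barcodes. Both lists thus lay between mt-low and leukocyte barcodes. In mt-positive barcodes of db/db over wt, Txnip was at 1.21, the glycolytic genes Gapdh and Pkm at 1.44 and 1.26, and the mitochondrial ADP/ATP carrier Slc25a5 at 1.91. The other tested glycolysis gene, Bpgm, which makes the bisphosphoglycerate of red cells, was at 0.04. Interferon genes did not move together, with Ifitm3 (1.38) and Slfn2 (1.44) higher and Isg15 (-1.35) and Rsad2 (-0.62) lower in db/db.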
